A study of Mus musculus with 4 samples.

Results

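The genes described here encode subunits of the receptors for fast and modulatory neurotransmitters in the brain: ionotropic and metabotropic glutamate receptors, GABA-A and GABA-B receptors, glycine receptors and nicotinic acetylcholine receptors. Members were taken by a rule on gene names, as every Affymetrix probe set (a group of short probes read as 1 signal) annotated with a single gene symbol of these families. The rule uses no signal values, but it was set with earlier results of these data known. The rule found 102 probe sets of 48 genes among the 45037 probe sets that were not array controls. Of the 56 gene names that the rule covers in the RefSeq gene table, 8 were not analysed here. RNA came from whole brains of mouse embryos on a mixed 129SvJ/C57Bl/6J background at embryonic day 14.5. The 2 control arrays held embryos with the genotype Sox4 flox/flox, Sox11 flox/flox, and the 2 double-knockout arrays embryos with these alleles and Brn4::Cre. Both groups therefore carry the floxed alleles of the SoxC transcription factor genes Sox4 and Sox11, the controls lack Cre, and deletion is limited to cells in which the Brn4 (Pou3f4) driver was active. The question is which receptor transcripts differ when the 2 genes are deleted. Pooling and sex of the embryos are not stated in the labels, and p-values cover the variation among these 4 arrays, which may in part be technical.

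Glutamate receptors of the AMPA, kainate and NMDA types are cation channels built from 4 subunits, while metabotropic glutamate receptors and GABA-B receptors act through G proteins. GABA-A, glycine and nicotinic receptors are channels built from 5 subunits of a common superfamily, and the mix of subunits sets their kinetics, pharmacology and place in the membrane. In the embryonic brain GABA and glycine often depolarise neurons, and subunit composition changes as neurons mature, as in the replacement of Glra2 by Glra1 in glycine receptors and in the later addition of Grin2a to NMDA receptors that contain Grin2b.

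Signals were deposited on a linear scale with each array scaled to the same trimmed mean of 1000, and median signals of the 4 arrays ranged from 262.6 to 287.6. The 6 Sox11 probe sets fell in the double knockout, as at 1431225_at, with signals of 7941 and 11473 in controls against 973 and 1107 in knockouts. The 6 tested Sox4 probe sets were mixed (4 fell, 1419157_at rose, 1433575_at did not pass), and which of them lie in the deleted part is not known here. Control 2 stood apart on sex-linked genes: Xist (1436936_s_at) read 25215 there against 166, 260 and 1670 on control 1, knockout 1 and knockout 2, and the Y-linked Eif2s3y (1417210_at) read 43.5 there against 3484, 3890 and 3578. Knockout 1 stood apart on skeletal muscle genes: Mylpf read 784 there against 173 to 228 on the other arrays, and Acta1 990 against 296 to 379. The summed signal of the 13 muscle markers was 3211 on knockout 1, 1716 on knockout 2 and 1487 to 1688 in controls, with none at 0. Values without knockout 1 are given where that array changed a call. Results are also given without control 2 where that array changed a call or where a receptor gene lies on the X chromosome. The chromosomes of companion genes were not looked up. Of 9 markers of brain neurons, 5 fell, 2 rose and 2 did not pass, and their summed signal ranged from 122220 to 127528 in controls and from 101466 to 105337 in knockouts, with none at 0. Of 12 markers of microglia and macrophages, 11 were tested and 11 rose, and the summed signal of the list ranged from 7042 to 7921 in controls and from 22774 to 25518 in knockouts, with none at 0. The series title speaks of spinal cord and the sample labels of whole brain: the forebrain gene Emx2 read 1396 to 1534 on all 4 arrays, and of 7 tested genes that mark brain regions 5 fell, among them the hindbrain genes Hoxb3 (-1.12) and Hoxa5 (-0.53), which the spinal cord also expresses, and the forebrain and midbrain gene Otx2 (-0.51). The summed signal of this list ranged from 12785 to 12976 in controls and from 8357 to 8522 in knockouts, with none at 0. The part of these shifts in the receptor results was not tested. In whole-brain RNA, fewer cells of a type and less RNA per cell cannot be told apart.

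Receptor genes moved in both directions. Of the 48 genes, 34 had a probe set bright enough to test (a mean log2 value above the 40th percentile of all probe sets). Read at the brightest probe set, 7 of the 34 rose (20.6%) and 9 fell (26.5%) in the double knockout at a limma adjusted p under 0.05, and 18 did not pass. Over all 12489 genes tested, 16.3% rose, 11.0% fell and 27.3% did either. Those that rose were Gria1, Gabra2, Gabra4, Gabrb1, Glra3, Glrb and Chrna7, and those that fell were Grik1, Grik3, Grin2b, Grin3a, Grm3, Gabra3, Gabrb2, Glra2 and Chrnb2. The median log2 change of the 34 genes was 0.018, against 0.057 over all genes tested. At the level of probe sets, 13 of 63 tested rose and 16 fell, where 11.7% and 11.6% of all 27022 did (23.2% in either direction). The 2 groups did not overlap for 26 of the 34 genes (76.5%), against 66.9% of all genes. Each of the 16 genes past the threshold was among them. With 2 arrays per group a call mostly goes with separated groups, so this is not read as support. Leaving out any single array left fewer receptor genes and receptor probe sets past the threshold in either direction. The shares of all genes tested that rose or fell were smaller in these fits as well. Such fits leave a single array in a group, and the share of receptor genes that rose is not read as above that of all genes.

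**Figure D1:**
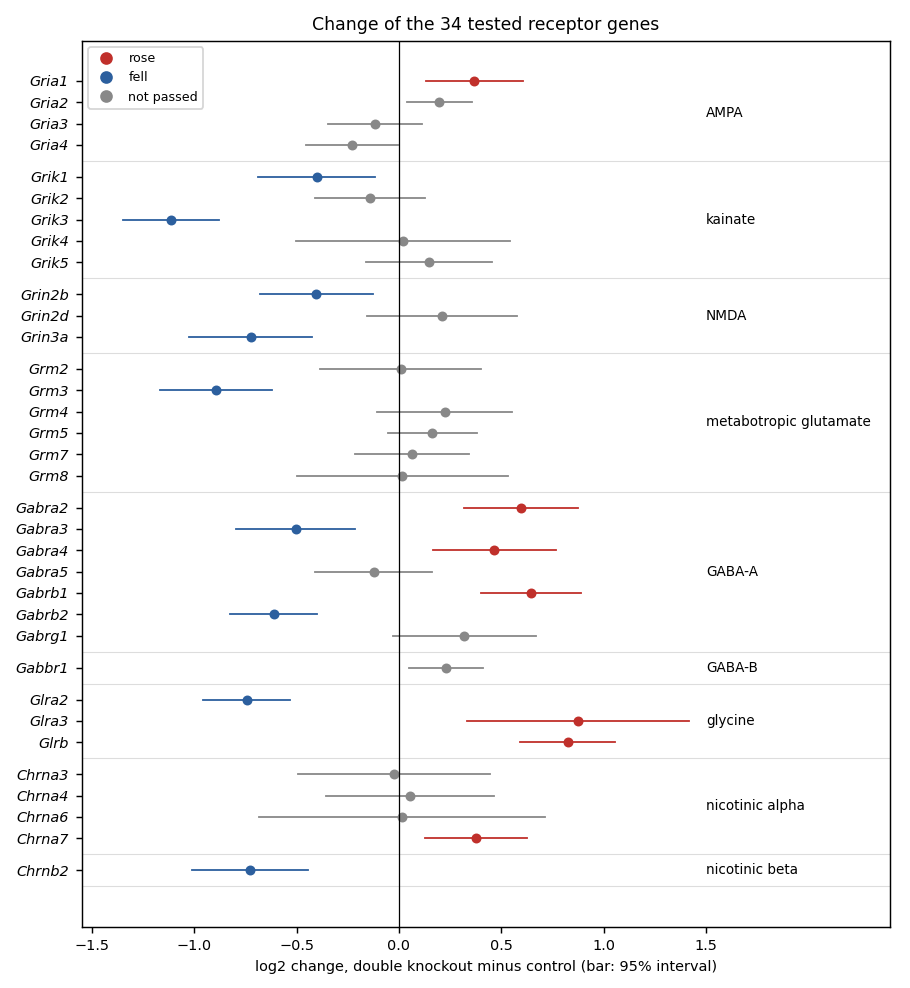
Log2 change (double knockout minus control, x axis) of the 34 tested receptor genes at their brightest probe set, grouped by receptor family, with 95% intervals as bars and 2 arrays per group. The 7 genes in red rose, the 9 in blue fell and the 18 in grey did not pass, and GABA-A and glycine receptors hold genes of either direction.

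**Figure D2:**
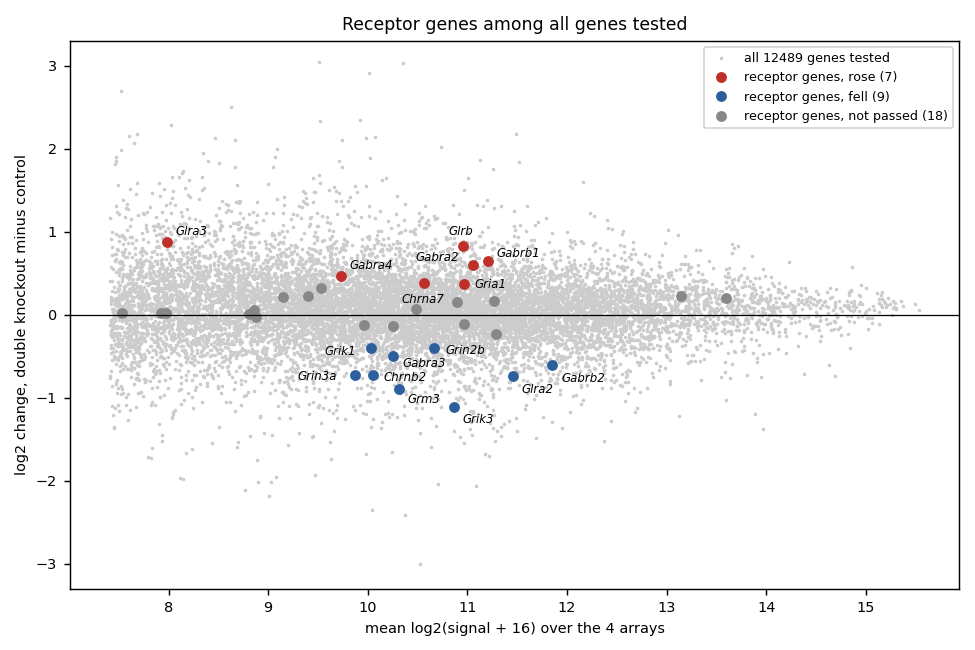
Mean log2(signal + 16) over the 4 arrays (x axis) against the log2 change in the double knockout (y axis) for all 12489 genes tested (small grey points), with the receptor genes as large points coloured by call. The receptor genes that passed span log2 changes from -1.11 (Grik3) to 0.88 (Glra3) and lie within the range of the other genes.

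Of 18 glutamate receptor genes tested, 5 fell (27.8%), 1 rose (5.56%) and 12 did not pass, beside 11.0% and 16.3% of all genes tested, and the difference between these shares was not tested. The falls of Grik3, Grin3a and Grm3 held under every alternative, while those of Grik1 and Grin2b and the rise of Gria1 did not. The largest change was that of Grik3, a low-affinity kainate receptor subunit. Its signals were 2788 and 2657 in controls and 1254 and 1244 in knockouts. Both knockout values were under 1260, well apart from the controls. Grik3 thus fell 2.16-fold (log2 change -1.11 ± 0.11, SE; limma adjusted p = 0.000118), and the value without any single array stayed past the threshold. Grik1, another low-affinity kainate subunit, read 1141 and 1241 in controls and 932 and 864 in knockouts (log2 change -0.40 ± 0.13, adjusted p = 0.0466). This call, close to the threshold, was lost with each array left out (-0.46 and -0.34 without controls 1 and 2, -0.46 and -0.35 without knockouts 1 and 2) and after median centring (-0.36, adjusted p = 0.0911) or quantile normalization (-0.39, adjusted p = 0.0544). A dimmer Grik1 probe set, 1439987_at, also fell (253 and 339 against 103 and 136, log2 change -1.20, adjusted p = 0.012). Both knockout signals there lay under the filter cutoff (a signal of 155). It was thus kept through its control signals and is not read as support for the call. The remaining kainate genes, Grik2 and the high-affinity subunits Grik4 and Grik5, did not pass. Their log2 changes were -0.14 (95% interval -0.41 to 0.13), 0.02 (-0.51 to 0.54) and 0.15 (-0.16 to 0.45). A second Grik2 probe set, 1425790_a_at, was split between the knockout arrays, with 269 and 309 in controls and 66.5 and 243 in knockouts (adjusted p = 0.111).

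Among NMDA receptor genes, Grin3a, a subunit that lowers calcium flow and magnesium block, read 1128 and 1252 in controls and 680 and 749 in knockouts. It fell 1.65-fold (log2 change -0.72 ± 0.14, SE; limma adjusted p = 0.00413) and passed with each array left out. A second Grin3a probe set fell as well (1436575_at, -0.70, adjusted p = 0.0229), and 1458378_at had a log2 change of -0.58 (adjusted p = 0.0951). Grin2b, the main glutamate-binding NMDA subunit of the embryonic forebrain, read 1779 and 1934 in controls and 1526 and 1281 in knockouts. The groups did not overlap, and the fall was 1.32-fold (-0.40 ± 0.12, adjusted p = 0.0407), with a larger value at 1442370_at (-0.62, adjusted p = 0.0201). At the brightest probe set the Grin2b call was lost without control 2 (-0.34), knockout 1 (-0.53) or knockout 2 (-0.28), and after median centring (-0.36, adjusted p = 0.0721). Grin2d, a subunit of early brainstem and interneuron NMDA receptors, did not pass (473 and 551 against 636 and 553, log2 change 0.21, 95% interval -0.16 to 0.58). Grin2a, Grin2c and Grin3b were too dim to test.

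AMPA receptor genes changed little at their brightest probe sets. Gria1, a subunit of calcium-permeable AMPA receptors, read 1791 and 1690 in controls and 2326 and 2175 in knockouts and rose 1.29-fold (log2 change 0.37 ± 0.11, SE; limma adjusted p = 0.0317). This call was lost with each array left out (0.23 and 0.33 without controls 1 and 2, 0.32 and 0.40 without knockouts 1 and 2, each read at the probe set brightest in that fit). Gria2, the subunit whose edited form makes AMPA receptors impermeable to calcium, read 11165 and 11956 against 13659 and 12868 and did not pass (0.20, adjusted p = 0.0711). Its other probe sets had log2 changes of 0.11 and -0.24, so that the sign differed within the gene. The X-linked Gria3 was nearly level (2060 and 2069 against 1913 and 1895, -0.12, 95% interval -0.34 to 0.11), and its log2 change was -0.11 without control 2. At its brightest probe set Gria4 missed the threshold (2701 and 2664 against 2189 and 2386, -0.23, adjusted p = 0.129) and fell at 1440891_at, from 1274 and 1262 to 792 and 848 (-0.62, adjusted p = 0.00628).

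Of the metabotropic glutamate receptors, Grm3, a group II receptor that inhibits adenylyl cyclase, was the gene that passed. Its signals were 1832 and 1611 in controls and 928 and 905 in knockouts. The fall was 1.86-fold (log2 change -0.89 ± 0.12, SE; limma adjusted p = 0.000829) and passed with each array left out. Its group II partner Grm2 was level (470 and 392 against 426 and 438, log2 change 0.01, 95% interval -0.39 to 0.40). Grm5, a group I receptor coupled to phospholipase C, read 2303 and 2311 against 2581 and 2590. The groups did not overlap, and the change of 0.16 did not pass (95% interval -0.05 to 0.38). The group III receptors Grm4 (0.22), Grm7 (0.06) and Grm8 (0.02) did not pass either.

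Of 7 GABA-A receptor genes tested, 3 rose, 2 fell and 2 did not pass, beside 16.3% that rose and 11.0% that fell of all genes tested. Genes of this receptor lie in clusters, and in the RefSeq gene table Gabrg1, Gabra2, Gabra4 and Gabrb1 neighbour each other on chromosome 5, with 1 other protein-coding gene among them, between Gabra2 and Gabra4. The 3 genes that rose, Gabra2, Gabra4 and Gabrb1, lie in this cluster, whose Gabrg1 did not pass, and no test of position was made. The call of Gabrb1 held under every alternative, while those of Gabra2 and Gabra4 did not. Gabrb1, a beta subunit, read 1751 and 1996 in controls and 3075 and 2802 in knockouts. It rose 1.57-fold (log2 change 0.65 ± 0.11, SE; limma adjusted p = 0.0026), passed with each array left out, and rose at the other tested probe sets as well (0.54 and 0.70). Gabra2, an alpha subunit of embryonic and limbic GABA-A receptors, read 1536 and 1925 in controls and 2515 and 2712 in knockouts. The controls differed more between themselves than the knockouts did, and the rise was 1.51-fold (0.60 ± 0.13, adjusted p = 0.00752). Its other tested probe sets rose too (0.50 and 0.87), while the call at the brightest was lost without knockout 2 (0.54, adjusted p = 0.076). Gabra4, an alpha subunit found outside synapses, read 671 and 743 against 991 and 973 and rose 1.38-fold (0.47 ± 0.14, adjusted p = 0.0319). The Gabra4 call was lost without control 1 (0.40), knockout 1 (0.45) or knockout 2 (0.48). It was also lost when the Gabra4 probe sets were averaged (0.38, limma adjusted p = 0.057). The other Gabra4 probe set, 1429330_at, did not pass (0.29, adjusted p = 0.353). Gabrg1, the gamma subunit of the cluster, did not pass (587 and 706 against 746 and 874, 0.32, 95% interval -0.03 to 0.67).

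Of the 3 tested GABA-A genes outside that cluster, 2 fell and 1 did not pass. Gabrb2, a beta subunit of the chromosome 11 cluster, read 4485 and 4617 in controls and 2805 and 3147 in knockouts. It fell 1.53-fold (log2 change -0.61 ± 0.10, SE; limma adjusted p = 0.00157), passed with each array left out, and fell at all 4 tested probe sets (-0.42 to -0.73). The X-linked Gabra3, an alpha subunit abundant in the embryonic brain, read 1319 and 1572 against 1027 and 994 and fell 1.42-fold (-0.50 ± 0.13, adjusted p = 0.0198). Without control 2, the array with high Xist, the change was -0.38 and did not pass (adjusted p = 0.119), nor did it without knockout 1 (-0.53) or knockout 2 (-0.48). Gabra5, of the chromosome 7 cluster, did not pass (992 and 1054 against 904 and 974, -0.12, 95% interval -0.41 to 0.16). Gabbr1, the ligand-binding part of the GABA-B receptor, had no call at its brightest probe set (8038 and 8690 against 10361 and 9285, 0.23, adjusted p = 0.0688) and rose at 1437188_at, from 2321 and 2186 to 3336 and 3191 (0.53, adjusted p = 0.00374). Averaged over its probe sets, Gabbr1 passed (0.32, adjusted p = 0.0173).

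The start regions of the 3 cluster genes that rose and of the fallen Gabra3 are shown as RefSeq promoter windows on build GRCm38.p6, from 250 bases before to 50 bases after the annotated start, since SoxC proteins bind DNA and these genes moved in a shared or opposite way. They are chr5:71095800-71096099 on the minus strand for Gabra2, chr5:71658259-71658558 on the minus strand for Gabra4, chr5:71657671-71657970 on the plus strand for Gabrb1 and chrX:72656870-72657169 on the minus strand for Gabra3. Each is written 5′ to 3′ along its gene, and capitals mark a Sox core motif, either ACAAAG or ACAATG or their reverse complements CTTTGT and CATTGT.
Gabra2: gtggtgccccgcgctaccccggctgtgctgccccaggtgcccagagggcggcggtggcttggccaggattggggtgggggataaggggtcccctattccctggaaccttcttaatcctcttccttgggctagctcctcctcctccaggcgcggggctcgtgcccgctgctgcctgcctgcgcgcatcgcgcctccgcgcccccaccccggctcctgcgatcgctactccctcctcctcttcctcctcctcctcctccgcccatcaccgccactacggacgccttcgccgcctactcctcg
Gabra4: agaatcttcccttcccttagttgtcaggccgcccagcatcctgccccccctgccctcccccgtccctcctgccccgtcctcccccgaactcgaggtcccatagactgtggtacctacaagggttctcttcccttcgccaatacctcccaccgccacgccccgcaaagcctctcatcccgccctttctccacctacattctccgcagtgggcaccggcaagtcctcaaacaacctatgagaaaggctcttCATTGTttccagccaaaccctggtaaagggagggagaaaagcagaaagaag
Gabrb1: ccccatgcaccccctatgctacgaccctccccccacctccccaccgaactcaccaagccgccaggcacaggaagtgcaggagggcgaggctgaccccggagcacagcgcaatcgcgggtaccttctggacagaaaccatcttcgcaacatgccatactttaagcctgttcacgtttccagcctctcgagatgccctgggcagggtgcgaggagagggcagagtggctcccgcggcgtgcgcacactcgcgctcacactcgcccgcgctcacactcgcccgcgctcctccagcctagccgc
Gabra3: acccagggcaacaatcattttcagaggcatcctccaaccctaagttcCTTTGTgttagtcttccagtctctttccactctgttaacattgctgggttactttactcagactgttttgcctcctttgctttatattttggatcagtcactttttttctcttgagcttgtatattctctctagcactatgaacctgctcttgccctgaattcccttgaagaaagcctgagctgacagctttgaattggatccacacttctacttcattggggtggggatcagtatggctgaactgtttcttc
The annotated starts of Gabra4 and Gabrb1 lie 387 bases apart on opposite strands. Gabra4 held CATTGT across its start and the Gabra3 window shown held CTTTGT upstream, while these letters were not in the Gabra2 and Gabrb1 windows. Gabra3 and Gabrb1 each have 2 windows listed. The Gabra3 window was picked for display because it holds a motif, and the other Gabra3 window held none. Of the 34 tested receptor genes, 26 matched a promoter entry by symbol, and 5 of them (19.2%) held a motif: Gabra4 among 6 that rose, Gabra3 among 6 that fell, and Gabrg1, Chrna3 and Gabbr1 among 14 that did not pass. Counted by window, 15.2% of the 33 receptor windows and 28.6% of all 32851 windows of the same length held a motif. A match is a match of letters only. The receptor windows had a median G and C content of 61.0%, against 52.7% for all windows.

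Glycine receptor genes passed in opposite directions. Glra2, the alpha subunit of embryonic glycine receptors, read 3557 and 3671 in controls and 2093 and 2212 in knockouts. It fell 1.67-fold (log2 change -0.74 ± 0.10, SE; limma adjusted p = 0.000573), with replicates close to each other. Glra2 is X-linked, and without control 2 its log2 change was -0.72 (adjusted p = 0.000605). Glrb, the beta subunit that binds gephyrin and anchors the receptor at synapses, read 1455 and 1500 in controls and 2562 and 2699 in knockouts. It rose 1.77-fold (0.82 ± 0.10, adjusted p = 0.000517), and its second probe set rose by 0.96 (adjusted p = 0.00278). Both the Glra2 fall and the Glrb rise passed with each array left out. Glra3, an alpha subunit, was dim, with 199 and 146 in controls and 308 and 347 in knockouts (0.88 ± 0.24, adjusted p = 0.0264). The Glra3 call was lost without control 2 (0.67), knockout 1 (0.96) or knockout 2 (0.79). Glra1, the adult alpha subunit, and Glra4 were too dim to test, with signals of 9.8 to 154 and 6.3 to 16.3.

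Of the nicotinic receptor genes, 5 of 12 were bright enough to test. Chrnb2, the beta subunit of most high-affinity nicotinic receptors of the brain, read 1299 and 1396 in controls and 840 and 774 in knockouts. It fell 1.66-fold (log2 change -0.73 ± 0.13, SE; limma adjusted p = 0.00293) and passed with each array left out, while a dimmer Chrnb2 probe set had a log2 change of -0.28 (adjusted p = 0.355). Its usual partner Chrna4 was level (497 and 390 against 488 and 430, log2 change 0.05, 95% interval -0.36 to 0.47). Chrna7, which forms receptors of a single subunit type, read 1286 and 1331 in controls and 1707 and 1700 in knockouts. The rise was 1.30-fold (0.38 ± 0.11, adjusted p = 0.0346), and the call was lost with each array left out (0.35 and 0.40 without controls 1 and 2, 0.37 and 0.38 without knockouts 1 and 2). Chrna3, a subunit of ganglionic receptors, was split between the knockout arrays (418 and 505 against 549 and 371, -0.02, adjusted p = 0.952). Chrna6, found in dopamine neurons, read 225 and 126 against 178 and 164 (0.02, adjusted p = 0.977). Of the 8 markers of peripheral ganglia listed, 4 were tested: Isl1 and Pou4f1, which brain neurons also express, fell, and Prph and Dbh did not pass.

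The 14 genes that could not be tested were Chrna1, Chrna2, Chrna5, Chrna9, Chrnb1, Chrnb3, Chrnb4, Gabra6, Gabrg3, Glra1, Glra4, Grin2a, Grin2c and Grin3b. Chrna1 and Chrnb1 belong to the muscle receptor, Chrna9 to the receptor of cochlear hair cells, and Gabra6 and Grin2c are known from cerebellar granule cells of the postnatal brain. Their signals ranged from 2.3 (Grin2a) to 273 (Chrnb4) over all arrays and probe sets, and a low signal is not read as absence. Chrnb4 reached 273 on knockout 1 alone at 1457008_at, against 107, 101 and 136 on the other arrays. Its other probe set, 1425849_at, read highest on control 1 (148, against 95.3 on knockout 1). Of 13 skeletal muscle markers, 4 could be tested and 0 passed in limma, with Mylpf at an unadjusted p of 0.0215. Knockout 1 also had the highest signals of Mylpf, of Acta1, of Tnnt3 (211 against 73.9 to 97.5) and of a second Ckm probe set (380 against 111 to 151). The muscle receptor subunits were not highest there: Chrna1 read 17.4 on knockout 1 and 136 on knockout 2, and Chrnb1 read 128 and 149. The part of muscle RNA in the nicotinic values was not tested.

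**Figure D3:**
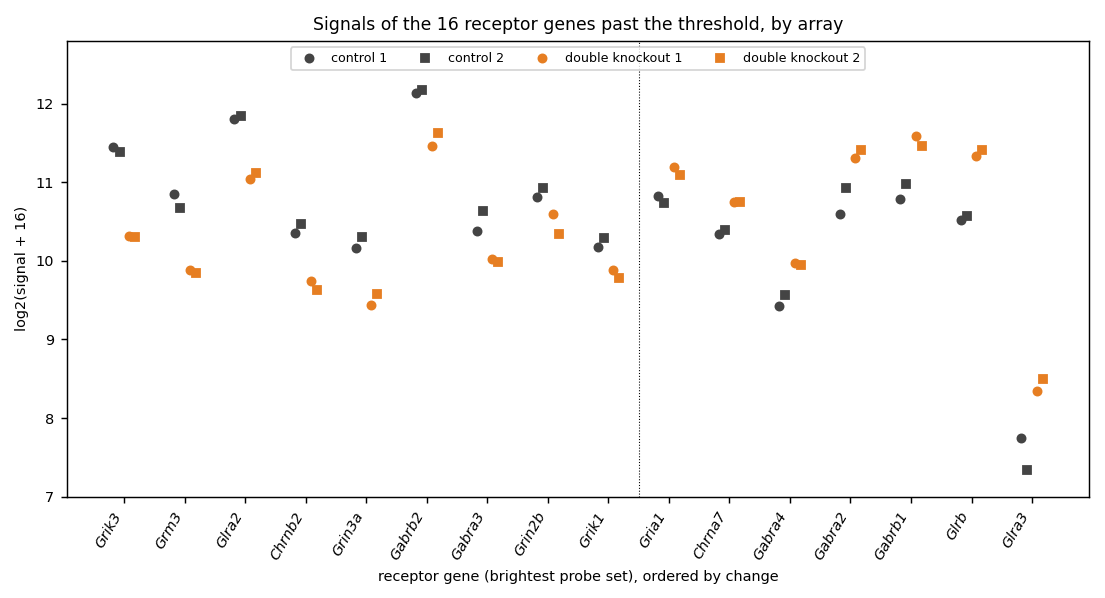
Log2(signal + 16) of each array (y axis) for the 16 receptor genes past the threshold at their brightest probe set (x axis, ordered by change), with controls in dark grey and double knockouts in orange. Within each gene both knockout points lie on 1 side of both control points, for the 9 genes left of the dotted line below them and for the 7 to its right above them, and heights are not comparable between genes.

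Several genes could be read at more than 1 place. Of the 20 genes with several tested probe sets, 11 passed at the brightest, and for 7 of these another probe set passed in the same direction (Gabra2, Gabrb1, Gabrb2, Glrb, Grik1, Grin2b and Grin3a). For Grik1 that other probe set was kept by the filter only through its control signals. The other tested probe sets of Gabra3 (-0.35), Gabra4 (0.29), Gria1 (0.27) and Chrnb2 (-0.28) had the same sign and did not pass. Gria4 and Gabbr1 passed at a dimmer probe set only. Where several probe sets of a gene passed, they had the same direction. The other 14 tested genes, among them Grik3, Grm3, Glra2, Glra3 and Chrna7, rested on 1 tested probe set.

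**Figure D4:**
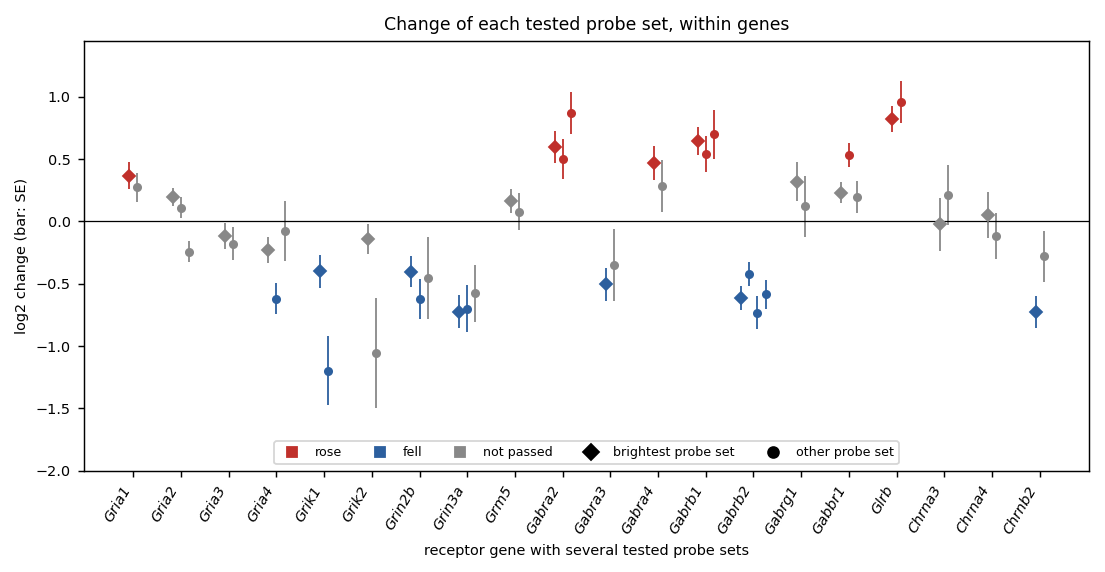
Log2 change with SE (y axis) of every tested probe set of the 20 receptor genes with several of them (x axis), the brightest as diamonds and the others as circles, coloured by call. All 4 Gabrb2 probe sets fell and the 3 of Gabra2 and of Gabrb1 rose, while those of Gria2, Chrna3 and Chrna4 lie on either side of 0.

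Genes that make, move or anchor these receptors, and those that supply their transmitters, were read from lists of companion genes. Of 40 tested auxiliary, chaperone and anchoring proteins, 8 rose and 7 fell at their brightest probe sets, with a median log2 change of -0.06. Over all genes tested, 16.3% rose and 11.0% fell, and no list was tested against these shares. Without a call at the brightest, Cacng2 (-0.63 and -1.14), Homer1 (-0.60) and the dim Clptm1 (-0.99) fell at other probe sets. Tmem35a (NACHO), a chaperone needed for assembly of nicotinic receptors, fell most, from 4584 and 4809 to 1608 and 1939 (-1.40 ± 0.11, SE; limma adjusted p = 5.06e-05). With single arrays left out, control 2 among them, its log2 change ranged from -1.54 to -1.27. Auxiliary proteins of AMPA and kainate receptors passed in both directions. Cacng4 (-0.51), a transmembrane AMPA receptor regulator, Neto2 (-0.52), a kainate receptor auxiliary protein, and Grip2 (-1.05), an AMPA receptor scaffold, fell. Shisa6 (0.77), an AMPA receptor auxiliary protein, Nptx1 (1.01), a secreted pentraxin that clusters AMPA receptors, Dlg1 (0.53), a scaffold, and Homer2 (0.76), a scaffold of group I metabotropic receptors, rose. These 8 calls held with each array left out. Cnih3 (0.95) rose and Cnih2 (-0.54) fell, both AMPA receptor cornichons, and leaving out knockout 1 (0.91) or knockout 2 (0.99) ended the Cnih3 call, whose size was 0.58 without control 2. Leaving out knockout 2 ended that of Cnih2 (-0.43).

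Other anchoring genes passed with smaller changes. Gphn, the gephyrin scaffold of glycine and GABA-A receptors, rose by 0.30, and this was lost with each array left out (0.27 and 0.32 without controls 1 and 2, 0.36 and 0.24 without knockouts 1 and 2). Gabarap (0.23), which binds GABA-A receptors, lost its call without control 1 (0.22), control 2 (0.24) or knockout 1 (0.20), and Nsf (0.45) without control 1 (0.36) or knockout 1 (0.34). The other tested probe sets of Gphn (0.21 and -0.08), Nsf (0.26 and -0.26) and Shisa6 (0.16) did not pass. Homer3 fell by 0.86 on the log2 scale, which was lost without knockout 2 (-0.82), and Dlg3 by 0.40, which was lost without control 1 (-0.44), control 2 (-0.37), knockout 1 (-0.48) or knockout 2 (-0.33).

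Of 7 tested genes of glutamate synthesis and transport, 3 rose: the vesicular transporters Slc17a7 (1.23) and Slc17a6 (0.64) and the neuronal uptake transporter Slc1a1 (0.44). Slc17a7 was dim, with 186 and 128 in controls and 376 and 390 in knockouts. Its controls lay on either side of the filter cutoff (a signal of 155), so that it was kept through its knockout signals. The Slc17a7 call was lost without knockout 1 (1.25) or knockout 2 (1.20), and that of Slc1a1 without control 2 (0.40) or knockout 1 (0.31). Slc1a3 had no call at its brightest probe set (0.27) and rose at dimmer ones (0.46, 0.49 and 0.41). Its dimmest tested ones did not pass (-0.48 and 0.15). Of 8 tested for GABA and glycine, 2 rose and 1 fell, beside 16.3% and 11.0% of all genes tested. Abat, the enzyme that breaks down GABA, rose from 2839 and 2906 to 4560 and 3989 (log2 change 0.57, limma adjusted p = 0.00281). Slc6a13 (0.53), a GABA transporter of the meninges and vessels, rose as well, without a call when control 1 (0.38), knockout 1 (0.54) or knockout 2 (0.53) was left out. Gad1, a GABA-synthesising enzyme, fell (-0.24), and this was lost without control 1 (-0.25), control 2 (-0.23) or knockout 2 (-0.20) and after median centring (-0.20, adjusted p = 0.248). Gad2 (0.13) and the vesicular GABA and glycine transporter Slc32a1 (-0.03) did not pass. Mesenchymal markers, beside which Slc6a13 is given, rose for 3 of 6, with a summed signal of 27182 to 27796 in controls and 35132 to 36535 in knockouts and none at 0, and their part in it was not tested.

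Ache, which breaks down acetylcholine, rose from 285 and 301 to 537 and 667 (log2 change 0.99 ± 0.18, SE; limma adjusted p = 0.00388), and its call was lost without knockout 2 (0.84). Chat, Slc18a3 and Slc5a7, which make, load and take up acetylcholine or choline, were too dim to test. Of the chloride transporters that set the direction of GABA and glycine currents, Slc12a2 rose (0.31, adjusted p = 0.0244) and Slc12a5 was level (0.01, adjusted p = 0.965). The Slc12a2 call was lost with each array left out (0.28 and 0.34 without controls 1 and 2, 0.33 and 0.29 without knockouts 1 and 2). Grid1 (-0.44, adjusted p = 0.107) and the muscarinic receptor Chrm1 (0.17, adjusted p = 0.64) were the only tested genes of the lists of other subunits and of muscarinic receptors, and neither passed.

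**Figure D5:**
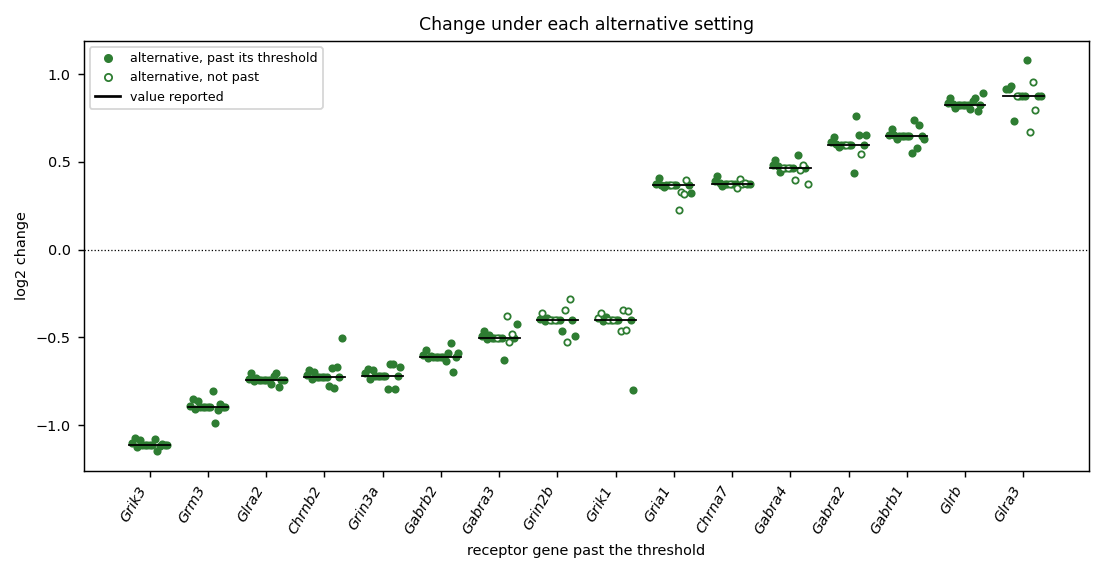
Log2 change (y axis) of the 16 receptor genes past the threshold (x axis) under each alternative setting, filled where the alternative passed its threshold and open where it did not, with the reported value as a black line. Values keep their sign throughout, and 8 genes (Grik3, Grm3, Glra2, Chrnb2, Grin3a, Gabrb2, Gabrb1 and Glrb) have filled points only.

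Across the settings tried, 8 of the 16 genes kept their call under every alternative, 6 that fell (Grik3, Grm3, Glra2, Chrnb2, Grin3a and Gabrb2) and 2 that rose (Gabrb1 and Glrb). Each of these 8 also passed with each of the 4 arrays left out. Without the variance trend in the model, Gria1, Grik1, Grin2b, Gabra2, Gabra3, Gabra4 and Chrna7 lost their calls, and without the filter on dim probe sets Grik1, Grin2b, Gabra4 and Glra3 did. The change of Grik3 ranged from -1.15 to -1.07 over these settings, that of Glra2 from -0.78 to -0.70 and that of Glrb from 0.79 to 0.89.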

How the data were processed

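Total RNA of whole embryonic brains was amplified, labelled with biotin and hybridised to 1-colour Affymetrix arrays, per the labels' protocols. The authors deposited probe set intensities on a linear scale, and the submitters' processing notes name MAS5 5.0. A mean trimmed by 2% on each side came to 1000 on every array. Such scaling removes any shift shared by most transcripts. The labels name no genome build. Of 45101 probe sets, 64 were array controls and were left out, 34958 had 1 symbol in the platform annotation, 932 several and 9211 none. All 102 receptor probe sets matched the RefSeq gene table by gene ID.

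Intensities were transformed as log2(intensity + 16), so that folds of dim genes are understated. Probe sets with a mean above the 40th percentile (log2 value 7.41) were kept, which left 27022. Knockout and control were compared with limma 3.58.1 (R 4.3.3; lmFit, then eBayes using a variance trend, 2 residual and 8.33 prior degrees of freedom) and Benjamini-Hochberg adjustment over all probe sets kept. Rose, fell and passed refer to an adjusted p under 0.05 in this fit, SE to the log2 change, and intervals to the same model. A gene was read at its brightest tested probe set. The steps were tested on simulated data.

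The members and lists were chosen with earlier results of these data known, and some companion genes beyond the 4 largest changes of a list were named after their values were seen. The rule for named genes took all receptor genes, with array values for those past the threshold with separated groups. The number of arrays, 2 per group, limits the precision. Alternatives were 2 scalings, 2 pseudocounts (1 and 64), no filter or one at the 60th percentile, eBayes without trend or robust, a looser threshold (0.1), leaving out each array, blocking on replicate number, and averaging the probe sets of a gene. The replicate numbers did not pair the arrays by their deviations. Lists of markers for neurons, microglia, peripheral ganglia, muscle and mesenchyme were read beside the results. Those for progenitors (3 of 7 tested rose), endothelium (4 of 6 rose), oligodendrocyte precursors (1 of 5 rose), and erythroid cells (3 tested, 0 passed and 0 at an unadjusted p under 0.05 in limma) were fixed with them.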

Additional observations from a re-analysis of the deposited data

How the results depend on the processing

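Each alternative changed 1 choice, and where an array was left out, the remaining array of its group was assumed to vary like the other group. The 16 receptor genes past the threshold kept their sign under every alternative run. Of the 16 calls, 15 remained with quantile normalization, 14 with median centring, 16 with either pseudocount, 12 with no filter, 15 with the filter at the 60th percentile, 9 without the variance trend and 16 with the robust trend. Without the variance trend 3 receptor genes and 7 receptor probe sets rose, over all probe sets 1471 rose and 1643 fell, and of the companion genes 8 rose and 5 fell, against 15 and 8. Leaving out single arrays gave 2 to 4 receptor genes that rose and 6 to 8 that fell, 5 to 10 receptor probe sets that rose and 8 to 15 that fell, and 1458 to 2611 probe sets of all that rose and 1674 to 2811 that fell. For companion genes it gave 7 to 11 that rose and 4 to 8 that fell, with the fewest rises without knockout 1 (7) and the fewest falls without knockout 2 (4). The median over the receptor genes ranged from -0.035 to 0.14 in these fits, so it has no stable sign. With a threshold of 0.1, Gabbr1 and Gria2 were added. Signs of receptor genes that had not passed turned for Chrna3 (0.0085 with quantile normalization, 0.018 with median centring, 0.094 for the mean of probe sets, -0.30 to 0.25 with arrays left out) and Chrna4 (-0.032 for the mean of probe sets, -0.11 to 0.22). With arrays left out they also turned for Chrna6 (-0.37 to 0.40), Grik4 (-0.11 to 0.15), Grik5 (-0.057 to 0.35), Grm2 (-0.12 to 0.13), Grm7 (-0.057 to 0.18) and Grm8 (-0.12 to 0.15). The arrays of equal replicate number share only a number (correlation of their deviations across probe sets 0.0028). With the replicate number as a block 7 receptor genes rose and 9 fell, the same 16 genes. The cause of these differences was not tested.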
